A study of Mus musculus with 9 samples.

Results

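Mucosal-associated invariant T (MAIT) cells carry a T-cell receptor (TCR) alpha chain that joins 1 V gene, TRAV1, to 1 J gene, TRAJ33. The chains described here are all productive TCR alpha (TRA) contigs whose first V call is TRAV1 or whose first J call is TRAJ33. They numbered 830 of 23088 productive TRA contigs in 8 libraries: 39 carried both genes, 230 carried TRAV1 with another J gene, and 561 carried TRAJ33 with another V gene. TRAV1 thus had 269 chains and TRAJ33 had 600. None of these calls named a further gene (0 of 269 and 0 of 600), and a second call of the gene in the same tables gave the same gene for all 269 and all 600.

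The chains came from lymph node cells of female mice of 10 to 11 months, either wild-type (WT) or 5xFAD, a transgenic line that carries familial Alzheimer's disease mutations. From each of 3 node types came 1 WT and 1 5xFAD library, and these 6 libraries form the comparisons: the deep cervical nodes (dCLN), the superficial cervical nodes (sCLN) and the nodes of the groin (inguinal, iLN). A further dCLN library with CD4 in its title is labelled WT. Another mixed 3 node types and both genotypes. These last libraries are given beside the others and entered the tests only as an alternative with 8 libraries. The second CD4-titled library, labelled 5xFAD, shares 6829 cell barcodes with the first and was left out. The same cells thus carry both genotype labels, so the genotype of the CD4-titled library is uncertain. Cells are labelled as immune cells with no sort named, and how many mice stood behind a library, or whether nodes shared mice, is not in the labels. With 1 library per node and genotype, p-values measure the spread between libraries and not between mice. An interval given for 1 library or for pooled libraries covers counting error alone. Productive TRA contigs numbered 1553, 1495 and 2129 in the WT libraries of dCLN, sCLN and iLN, and 3664, 3020 and 1561 in the 5xFAD ones. The CD4-titled library had 6049 and the mixed library 3617. Among the 28 pairs of these libraries at most 46 cell barcodes were shared, with 0 shared combinations of barcode and junction.

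MAIT cells recognise vitamin B metabolites presented by MR1, a protein related to the antigen-presenting MHC class I molecules. Their alpha chain is nearly the same in all individuals, and in mice it is known to pair mainly with beta chains that use TRBV13 or TRBV19. They are known to be rare in laboratory mice and more frequent in human blood. TRAV1 is the first V gene of the mouse TRA locus and lies farther from the J genes than any other. A TRA locus can rearrange repeatedly, each time removing the DNA between the joined genes and joining a V gene farther upstream to a J gene farther downstream. V genes near the J cluster therefore tend to join the first J genes. No expression data were used here, so these chains show receptor genes and not the state of the cells that carry them.

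The germline ends that meet in the junction, and the junctions seen, are shown because most results below turn on them. TRAV1 (ENSMUSG00000076758.6) lies at chr14:52427928-52428876 and TRAJ33 (ENSMUSG00000076896.1) at chr14:54185358-54185414, both on the plus strand of GRCm38 in the GENCODE M21 annotation. Of 60 annotated TRAJ genes, TRAJ33 is the 29th counted from the V side, and 1756.5 kb separate the end of TRAV1 from its start. A junction runs from the codon of the conserved V cysteine to that of the conserved J residue. TRAV1 can supply 14 bases to it and TRAJ33 can supply 26.
TRAV1 germline end: tgtgctgtgaggga
TRAJ33 germline start: tggatagcaactatcagttgatctgg

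Among the 39 chains with both genes there were 16 different junctions, of which 13 were seen in 1 chain each. The 5 shown are the 3 seen more than once, 1 of the 2 chains that share the translation of the leading one through another codon, and 1 with a longer added stretch. Capitals mark bases that match neither germline end.
Leading junction, 22 chains: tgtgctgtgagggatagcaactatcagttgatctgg
Seen in 2 chains: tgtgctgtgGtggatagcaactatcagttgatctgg
Also seen in 2 chains: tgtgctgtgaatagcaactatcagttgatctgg
Same translation by another codon, 1 chain: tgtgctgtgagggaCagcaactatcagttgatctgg
Longer added stretch, 1 chain: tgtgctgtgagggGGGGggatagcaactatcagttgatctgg

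The leading junction is 36 bases long and holds no base outside the germline genes. Its first 14 bases match TRAV1 and its last 25 match TRAJ33, so 3 bases fit either gene. All 22 TRA chains that carried it in the 8 libraries used TRAV1. It was found 5, 6 and 3 times in the WT libraries of dCLN, sCLN and iLN, and 2, 2 and 3 times in the 5xFAD ones. The CD4-titled library held 1 such chain and the mixed library 0. In 17 of the 22 cells 1 productive beta (TRB) chain was found beside it, with 16 distinct TRB junctions, so nearly every repeat of this alpha chain stood beside another beta chain. The 1 TRB junction seen beside it in 2 cells came from 2 libraries.

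The 39 chains with both genes were alike in length. Of these junctions 32 measured 36 bases, and 24 chains shared 1 translation. The TAT codon of TRAJ33, which encodes the tyrosine known in MAIT receptors to reach the ligand held by MR1, was kept in 39 of 39 chains. It was also kept in 599 of all 600 TRAJ33 chains. All 14 germline junction bases of TRAV1 were matched in 27 of the 39 chains with both genes, and in 90 of 230 TRAV1 chains with another J gene. Of these 27 chains, 22 carried the leading junction, where 3 of the 14 bases fit TRAJ33 as well. Whether TRAV1 supplied those bases is not known, so the 2 counts do not compare bases kept by TRAV1. The chains with both genes rested on 1 to 16 unique molecular identifiers (UMIs), with a median of 4, and 6 of them on 1 UMI. Of these 6, dCLN WT held 3, sCLN WT held 1 and the CD4-titled library held 2, and the 5xFAD node libraries held 0.

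The 4 classes of chains differed in their junctions within the 6 node libraries. Junction length had a median of 36 bases in the 35 chains with both genes, 42 in the 168 with TRAV1 only, 36 in the 348 with TRAJ33 only and 42 in the 12871 other TRA chains. A junction of exactly 36 bases was found in 82.9%, 7.74%, 31.6% and 15.0% of these classes. The added bases that the deposited annotation assigns to neither gene averaged 0.57, 3.02, 2.85 and 2.69. The share of chains with no such base was 77.1%, 14.9%, 19.5% and 18.9%. As a description of the pooled chains, those with both genes had the shortest mean junction, at 36.4 bases against 37.4 with TRAJ33 only. In dCLN 5xFAD this order did not hold, at 37.8 against 37.7 bases. The pooled chains with both genes also had the fewest added bases, while those with TRAV1 only or TRAJ33 only lay near the other chains. The annotation extends the V gene over mismatches, so it gave 0 added bases for 30 of the 39 chains with both genes, whereas an exact comparison with the germline ends gave 24.

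**Figure D1:**
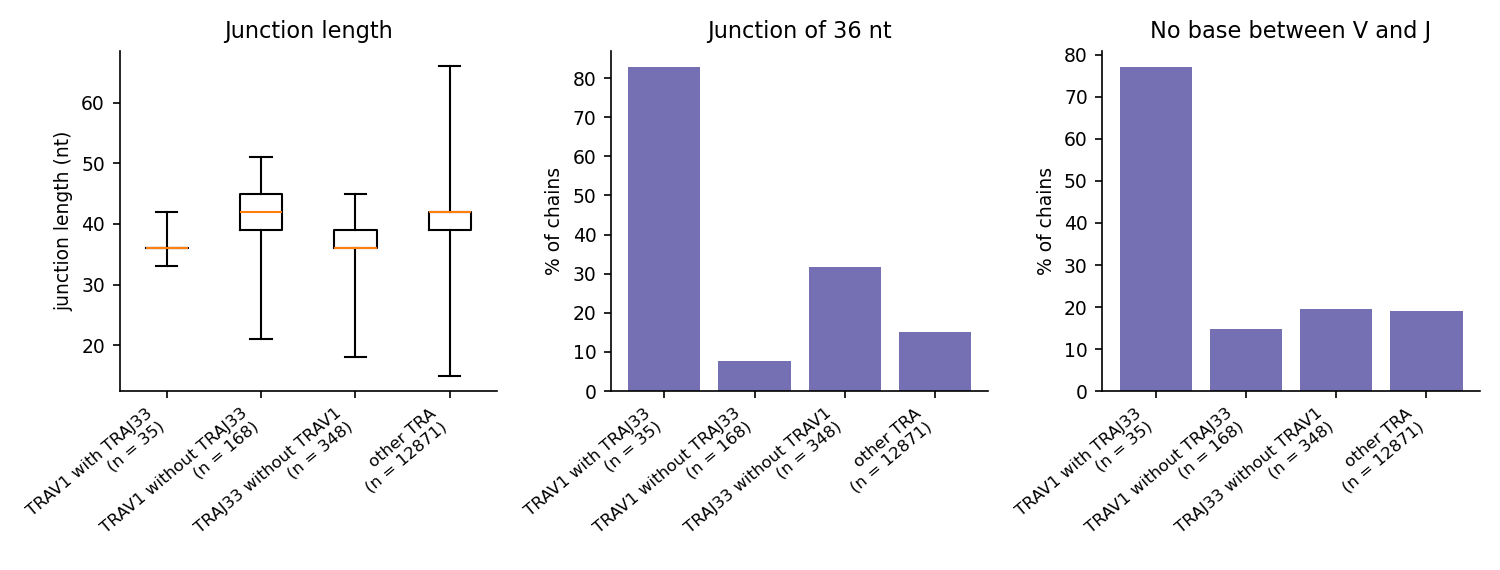
Junction length in nucleotides (line, median; box, quartiles; whiskers, range), the percentage of chains with a junction of 36 nt and the percentage with no base assigned between V and J, for the 4 classes of chains pooled over the 6 node libraries. The chains with both genes reach 82.9% and 77.1% in the middle and right panels, and no other class passes 31.6%.

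The question of the within-library comparisons was how chains with either gene differ from the other TRA chains of their own library. Each difference was tested over the 6 node libraries with an exact sign-flip permutation test, two-sided, whose smallest possible p is 0.03125, with Benjamini-Hochberg adjustment over 10 comparisons. With this family the smallest adjusted p reached was 0.0625, so none of the 10 passed a threshold of 0.05. TRAJ33 chains had junctions of 37.2 ± 0.58 bases against 40.5 ± 0.19 in the other chains (SD, n = 6 libraries). This difference of -3.32 ± 0.48 bases was negative in 6 of 6 libraries (exact p = 0.03125, adjusted p = 0.0625). For TRAV1 chains as a whole the lengths were 40.4 ± 0.79 and 40.4 ± 0.19 bases (exact p = 0.9375, adjusted p = 0.9375). Without the chains that carry both genes, TRAV1 junctions were 1.06 bases longer than the others (exact adjusted p = 0.0703), and they were 0.60 bases longer with each TRA junction counted once per library (exact adjusted p = 0.0625). Added bases gave no stable sign for either gene, with a difference of -0.16 ± 0.27 for TRAV1 (exact adjusted p = 0.45) and -0.08 ± 0.24 for TRAJ33 (exact adjusted p = 0.625). When the CD4-titled and mixed libraries were added, giving 8, the TRAJ33 length difference was -3.28 bases with an exact adjusted p of 0.0195. More libraries allow a smaller p, and whether the added ones come from other mice is not in the labels. The p-values with 8 libraries are therefore no independent support for the comparisons over 6.

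In every library a larger share of TRAV1 chains than of other chains was joined to TRAJ33. In the 6 node libraries 35 of 203 TRAV1 chains used TRAJ33, a share of 17.2% (exact Clopper-Pearson 95% interval 12.3 to 23.2), against 2.63% (2.37 to 2.92) of chains with other V genes. The share was 33.3%, 23.1% and 23.1% in the WT libraries of dCLN, sCLN and iLN, and 8.93%, 13.6% and 18.2% in the 5xFAD ones. It was 4.26% in the CD4-titled and 10.5% in the mixed library, each on 2 chains. Every one of these values lay above the share among other V genes of the same library, which ran from 1.93% to 3.52%. The mean over the 6 node libraries was 20.0% ± 8.52 against 2.73% ± 0.57, a difference of 17.3 ± 8.03 percentage points that was positive in 6 of 6 libraries (exact sign-flip p = 0.03125, adjusted p = 0.0625). With 8 libraries the difference was 14.2 percentage points, with an exact adjusted p of 0.0195 under the limit given above for 8 libraries. Counting each combination of V gene, J gene and TRA junction once per library reduced it to 8.15 ± 3.98 percentage points (exact adjusted p = 0.0625), a count that also merges the leading junction of different cells. Had the genes been joined in proportion to their shares, 5.79 chains with both would stand in the 6 node libraries, so the 35 found were 6.04 times as many. Of 72 V genes with at least 20 chains, TRAV1 had the highest share of TRAJ33.

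Seen from TRAJ33, TRAV1 supplied 9.14% of its 383 chains in the node libraries, against 1.29% of chains with other J genes. The V subgroups used most by TRAJ33 were TRAV6 and TRAV7 with 63 chains each, TRAV13 with 54, and TRAV14 and TRAV1 with 35 each. TRAV6, the largest subgroup, supplied 16.4% of TRAJ33 chains against 21.6% of the others, and TRAV7 supplied 16.4% against 13.5%. These large subgroups used TRAJ33 in 2.19% and 3.46% of their chains.

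Between genotypes the share of TRAJ33 among TRAV1 chains was lower in 5xFAD in 3 of 3 node types, at 26.5% ± 5.92 for WT against 13.6% ± 4.63 for 5xFAD (SD over 3 node types; exact sign-flip p = 0.25, the smallest that 3 pairs allow). The pooled counts were 18 of 70 in WT and 17 of 133 in 5xFAD. Of the 18 WT chains with both genes 4 rested on 1 UMI, and of the 17 5xFAD chains 0 did. Among the chains with both genes, the leading junction made up 14 of 18 in WT and 7 of 17 in 5xFAD. As a mean over node types this was 77.8% ± 25.5 in WT and 41.1% ± 8.39 in 5xFAD (exact sign-flip p = 0.5), and the iLN libraries were level at 3 of 6 each. With 3 pairs no difference could pass 0.05.

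TRAV1 chains were 1.16%, 1.74% and 1.22% of TRA chains in the WT libraries of dCLN, sCLN and iLN, and 1.53%, 1.46% and 2.11% in the 5xFAD ones. TRAJ33 chains were 3.86%, 3.21% and 3.38% in WT and 2.13%, 2.85% and 2.50% in 5xFAD, in the same node order. The values of TRAV1 overlapped between genotypes, and those of TRAJ33 did not. By clonotype shares, described next, TRAJ33 was likewise lower in 5xFAD without overlap, as were 11.7% of the 94 V and J features tested, and 6.38% were higher without overlap. Both genes were less frequent in the CD4-titled library, at 0.777% and 1.95%, than in dCLN WT, and the mixed library had 0.525% of TRAV1 and 2.74% of TRAJ33. MAIT cells are known to lack CD4 in most cases. Whether cells of the CD4-titled library were selected for CD4 is not in the labels, and its genotype is uncertain. Of the 60 TRAJ33 chains of dCLN WT, 6 carried TRAV1. Among chains with other V genes, TRAJ33 was also less frequent in the CD4-titled library, at 1.93% against 3.52% in dCLN WT. The exact intervals of the TRAV1 shares overlapped, at 0.571% to 1.03% and 0.688% to 1.83% in the same order. In dCLN 5xFAD, without CD4 in its title, TRAJ33 stood at 2.13%. The cause of these differences was not tested.

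**Figure D2:**
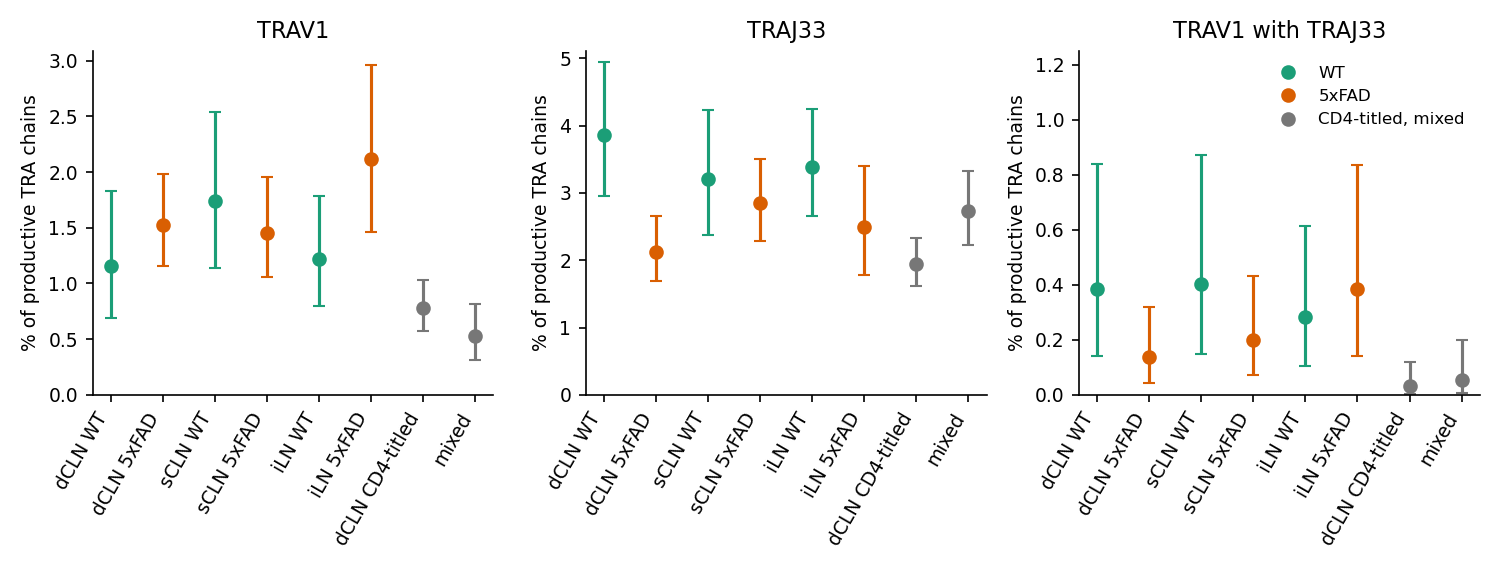
Percentage of productive TRA chains with TRAV1, with TRAJ33 and with both genes in each of 8 libraries; points are single libraries and bars are exact 95% intervals for counting error. TRAJ33 lies between 3.21% and 3.86% in the 3 WT node libraries and between 2.13% and 2.85% in the 3 5xFAD ones.

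For the test of usage, clonotypes (distinct pairs of TRA and TRB chains) were counted so that a repeated clone counted as 1. The clonotype share of TRAJ33 was 3.48% ± 0.23 for WT and 2.55% ± 0.38 for 5xFAD (SD over 3 node types). The log2 fold change was -0.46 (standard error 0.23) and did not pass the test (edgeR quasi-likelihood unadjusted p = 0.045, Benjamini-Hochberg adjusted p = 0.32). Within nodes the log2 ratio of 5xFAD to WT was -0.76 in dCLN (95% counting interval -1.33 to -0.20), -0.14 in sCLN (-0.73 to 0.44) and -0.47 in iLN (-1.11 to 0.17). The clonotype share of TRAV1 was 1.34% ± 0.12 for WT and 1.51% ± 0.42 for 5xFAD. Its log2 fold change was 0.15 (standard error 0.31; edgeR adjusted p = 0.93). Its ratio was 0.21 in dCLN, -0.44 in sCLN and 0.61 in iLN, each with an interval that spans 0, and without either iLN library the fitted value turned to -0.07. Of the 94 V and J features in this fit, 2.13% passed for genotype, and neither gene was among them. In the 3 contrasts between node types 0% passed, with 2, 3 and 2 features at an unadjusted p under 0.05 by edgeR and 0 calls by DESeq2. TRAV1 and TRAJ33 had log2 differences between -0.34 and 0.18 in these contrasts.

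The features whose share followed that of TRAV1 most closely over the 6 node libraries, by the root mean square difference of log2 relative share, were TRAV21 at 0.10, TRBV29 at 0.13 and TRBV13-1 at 0.14, beside a median of 0.33 over 78 features. For TRAJ33 they were TRAJ22 at 0.15, TRAV12 at 0.16 and TRBV4 at 0.18. These were picked as the smallest of 78 differences. They rest on a mean of 23.3 clonotypes per library for TRAV1 and 48.7 for TRAJ33, with counting error not taken into account. Whether any of these features varies together with either gene was not tested. A second invariant receptor, the TRAV11 to TRAJ18 chain of invariant natural killer T cells, gave 3, 6 and 8 chains in the WT libraries of dCLN, sCLN and iLN, and 0, 2 and 0 in the 5xFAD ones. The TRAV1 and TRAJ33 pair gave 6, 6 and 6 in WT and 5, 6 and 6 in 5xFAD. The libraries differ in size, so shares of TRA chains are given too. In the same node order the TRAV1 and TRAJ33 pair had 0.386%, 0.401% and 0.282% in WT and 0.136%, 0.199% and 0.384% in 5xFAD. The TRAV11 and TRAJ18 pair had 0.193%, 0.401% and 0.376% in WT and 0%, 0.066% and 0% in 5xFAD. With 3 pairs of libraries neither difference could pass 0.05.

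TRB partners were compared in cells with 1 productive TRB chain. Of 28 chains with both genes in the node libraries, 18 had a TRBV13 or TRBV19 partner, a share of 64.3% (exact 95% interval 44.1 to 81.4). These were 9 chains with TRBV13-3, 6 with TRBV13-2, 2 with TRBV19 and 1 with TRBV13-1. The share was 33.1% (25.3 to 41.7) in TRAV1 chains with another J gene, 24.0% (19.2 to 29.4) in TRAJ33 chains with another V gene and 30.4% (29.5 to 31.3) in other chains. Beside the leading junction it was 12 of 17 chains, with TRBV13-3 in 8. The partner genes outside this list were TRBV1 in 3 chains, TRBV5 and TRBV4 in 2 each, and TRBV31, TRBV3 and TRBV12-2 in 1 each. In sCLN 5xFAD 2 of 6 chains with both genes had 1 TRB partner, against 5 or 6 chains in each other node library. The libraries differed: TRBV13 or TRBV19 partners made up 3 of 5, 4 of 5 and 1 of 5 in WT dCLN, sCLN and iLN. In the 5xFAD libraries of the same nodes they made up 4 of 5, 1 of 2 and 5 of 6. The CD4-titled library had 1 of 1 and the mixed library 0 of 2.

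Taking all TRAV1 chains, the TRBV13 or TRBV19 share was 6 of 15 chains for the WT library of dCLN, 38.1% for that of sCLN and 39.1% for that of iLN, and 39.1%, 39.4% and 34.6% in the 5xFAD libraries of the same nodes. The mean of 38.4% ± 1.95 stood 7.67 ± 3.64 percentage points above the other chains, with the sign positive in 6 of 6 libraries (exact p = 0.03125, adjusted p = 0.0625). Without the chains that carry both genes the difference was 1.32 ± 9.82 percentage points (exact adjusted p = 0.78). With each TRA junction counted once per library it was 1.88 ± 8.24 (exact adjusted p = 0.74). That count merges cells that share the leading junction but mostly differ in their TRB chain, so it is no check on repeated clones. In the mixed library the difference had the other sign, at -2.36 percentage points on 17 chains. TRAJ33 chains had such a partner in 18 of 45 chains of dCLN WT, 38.5% of sCLN WT and 18.0% of iLN WT, and in 26.2%, 12.3% and 53.1% in the 5xFAD libraries. Their SD over libraries was 15.3 percentage points. The lowest, sCLN 5xFAD, had 9 of 73 chains (exact 95% interval 5.80 to 22.1), and the highest, iLN 5xFAD, had 17 of 32 (34.7 to 70.9). These intervals do not overlap, but the libraries were picked as lowest and highest and the intervals cover counting error alone, so this is a description. Their mean difference from other chains was 0.54 ± 14.8 percentage points (exact adjusted p = 0.94), and without iLN 5xFAD it was -3.50. In sCLN 5xFAD the most frequent partner of TRAJ33 was TRBV3, with 10 chains.

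**Figure D3:**
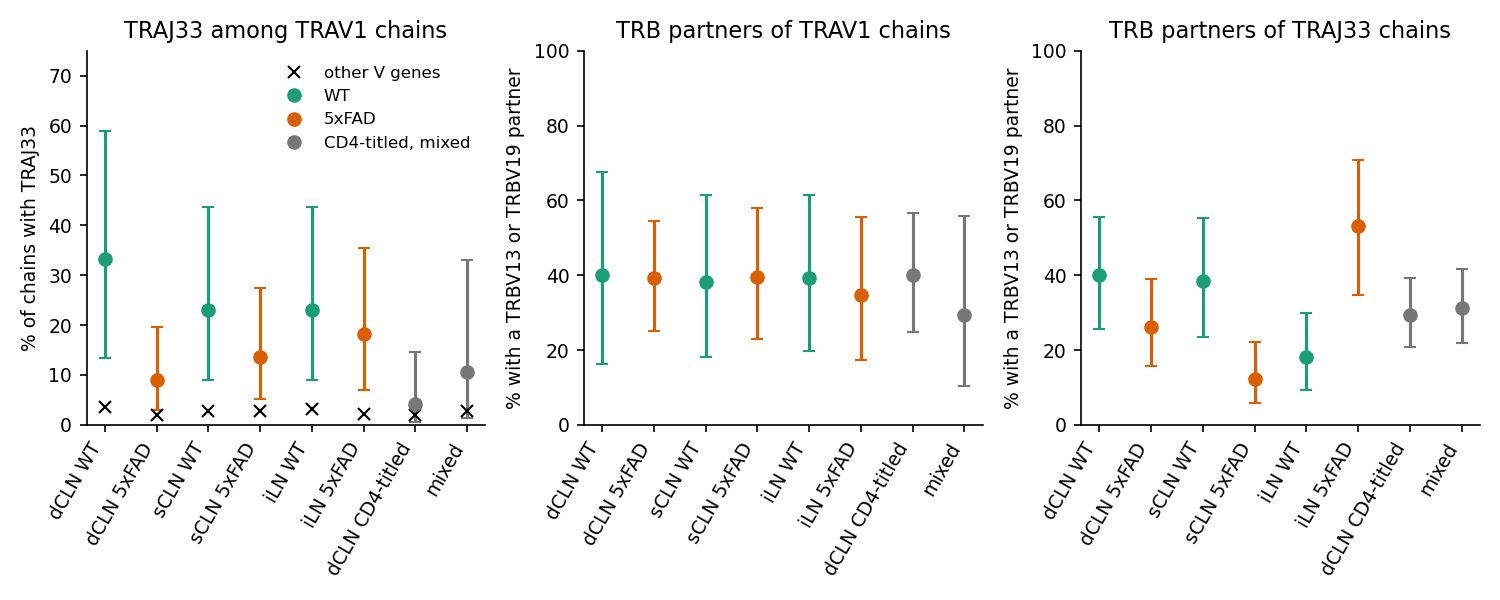
Percentage of TRAV1 chains joined to TRAJ33 (points, with crosses for the chains of other V genes) and percentage of TRAV1 and of TRAJ33 chains with a TRBV13 or TRBV19 partner, by library; bars are exact 95% intervals for counting error. In the 6 node libraries TRAV1 chains have a mean of 38.4% ± 1.95 (SD) in the middle panel, whereas TRAJ33 chains run from 12.3% to 53.1%.

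A second TRA chain in the same cell was found beside 2 of 35 chains with both genes (5.71%, exact 95% interval 0.70 to 19.2). It was found beside 20.8% (15.0 to 27.8) of TRAV1 chains with another J gene, 10.3% of TRAJ33 chains with another V gene and 10.8% of other chains. The UMIs of TRAV1 chains differed from those of other chains by a mean log2 difference of -0.24 ± 0.13 that was negative in 6 of 6 libraries (exact p = 0.03125, adjusted p = 0.0625). The UMI difference was -0.13 with chains of at least 2 UMIs (exact adjusted p = 0.21) and -0.12 ± 0.26 without the chains that carry both genes (exact adjusted p = 0.42). Repeats were few: of 216 distinct TRA and TRB pairs with TRAV1, 5 were seen more than once within a library, and of 493 with TRAJ33, 10 were, none in more than 2 cells.

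TRAV1 occurred as 2 sequences that reached at least 5 chains, shown here because the WT and 5xFAD libraries differ in them. Each is the V region from its first mature base to the base before the junction, 261 bases. The first, called TRAV1*02, is identical to the GRCm38 gene. The second, called TRAV1*01, differs at 8 positions, marked by capitals.
TRAV1*02, 42 chains: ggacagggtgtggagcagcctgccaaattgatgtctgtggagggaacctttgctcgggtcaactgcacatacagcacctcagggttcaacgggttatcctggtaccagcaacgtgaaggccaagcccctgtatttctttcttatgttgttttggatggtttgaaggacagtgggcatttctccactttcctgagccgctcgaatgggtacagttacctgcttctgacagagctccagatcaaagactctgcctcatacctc
TRAV1*01, 226 chains: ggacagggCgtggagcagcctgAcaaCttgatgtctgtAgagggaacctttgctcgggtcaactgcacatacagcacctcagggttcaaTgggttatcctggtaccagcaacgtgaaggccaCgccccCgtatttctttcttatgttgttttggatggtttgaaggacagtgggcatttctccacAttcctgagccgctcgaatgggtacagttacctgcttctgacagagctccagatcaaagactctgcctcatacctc

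Counted from 1 at the first mature base, with the GRCm38 base first, the substitutions are T9C, C23A, A27C, G39A, C90T, A123C, T129C and T186A. Of these C23A, A27C and A123C change the residue, and C90T, which is silent, is the 1 that lies in the first complementarity-determining region. A single further chain, in iLN 5xFAD, carried 7 of the 8.

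No TRAV1 chain of a 5xFAD node library had the reference sequence, at 0 of 133 (exact 95% interval 0 to 2.74%), where a floor of 3 counts would make 2.26%. In the WT node libraries it was found in 6 of 18 chains of dCLN, 5 of 26 of sCLN and 8 of 26 of iLN, or 27.1% (exact 95% interval 17.2 to 39.1) in all. The CD4-titled library, whose genotype is uncertain, had 7 of 47 and the mixed library 16 of 19. Among chains of other V genes the V region matched GRCm38 exactly in 55.1% (53.7 to 56.5) of WT node chains and in 13.6% (12.9 to 14.4) of 5xFAD ones, where V genes that do not differ between the 2 sets of sequences also count as matches. The genotype labels and the V gene sequences a library carries therefore cannot be told apart in the comparisons above. Nor did the sequences follow the labels alone. Other V genes matched GRCm38 in 35.1% of chains of the CD4-titled library and in 95.1% of those of the mixed library. The mixed library, whose title names both genotypes, thus lay above both the WT and the 5xFAD node libraries. The cause was not tested. Of the 39 chains with both genes, 4 had the reference sequence and 35 the other. Within the WT nodes TRAJ33 was used by 4 of 19 chains with the reference sequence (21.1%, exact 95% interval 6.05 to 45.6) and by 14 of 51 with the other (27.5%, 15.9 to 41.7), and these intervals overlap. TRAJ33 showed 1 sequence: after the junction, 599 of 600 chains were identical to GRCm38.

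The choice of J gene by TRAV1 was described along the J cluster, with positions in kb from the first TRAJ gene on the V side. TRAV1 used 34 TRAJ genes in the node libraries, and other V genes used 43. TRAJ genes numbered 40 and above, which lie nearest to the V genes, were used by 10 of 203 TRAV1 chains (4.93%, exact 95% interval 2.39 to 8.87) and by 34.1% of the others. Those numbered 21 to 39 were used by 68.5% and 40.7%, and those numbered 20 and below by 26.6% and 25.1%. TRAV1 was thus rarer at the first J genes and more frequent in the middle of the cluster, and near the others at its far end. After TRAJ33 with 35 chains, the J genes TRAV1 used most were TRAJ18 with 15, TRAJ26 with 14, and TRAJ23 and TRAJ32 with 12 each.

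The mean J position of TRAV1 chains was 32.8, 38.0 and 39.5 kb in the WT libraries of dCLN, sCLN and iLN, and 40.1, 38.4 and 34.8 kb in the 5xFAD ones. Other chains lay at 30.9 to 33.3 kb, so 5 of the 6 TRAV1 means were above all of these. The mean difference of 5.20 ± 2.98 kb was positive in 6 of 6 libraries and smallest in dCLN WT, at 0.54 kb (exact sign-flip p = 0.03125, adjusted p = 0.0625). With 8 libraries it was 5.46 kb, with an exact adjusted p of 0.0195 under the limit given above for 8 libraries. TRAJ33 itself lies at 30.4 kb, below these means, and without the chains that use it TRAV1 lay 6.78 kb farther along than other chains.

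**Figure D4:**
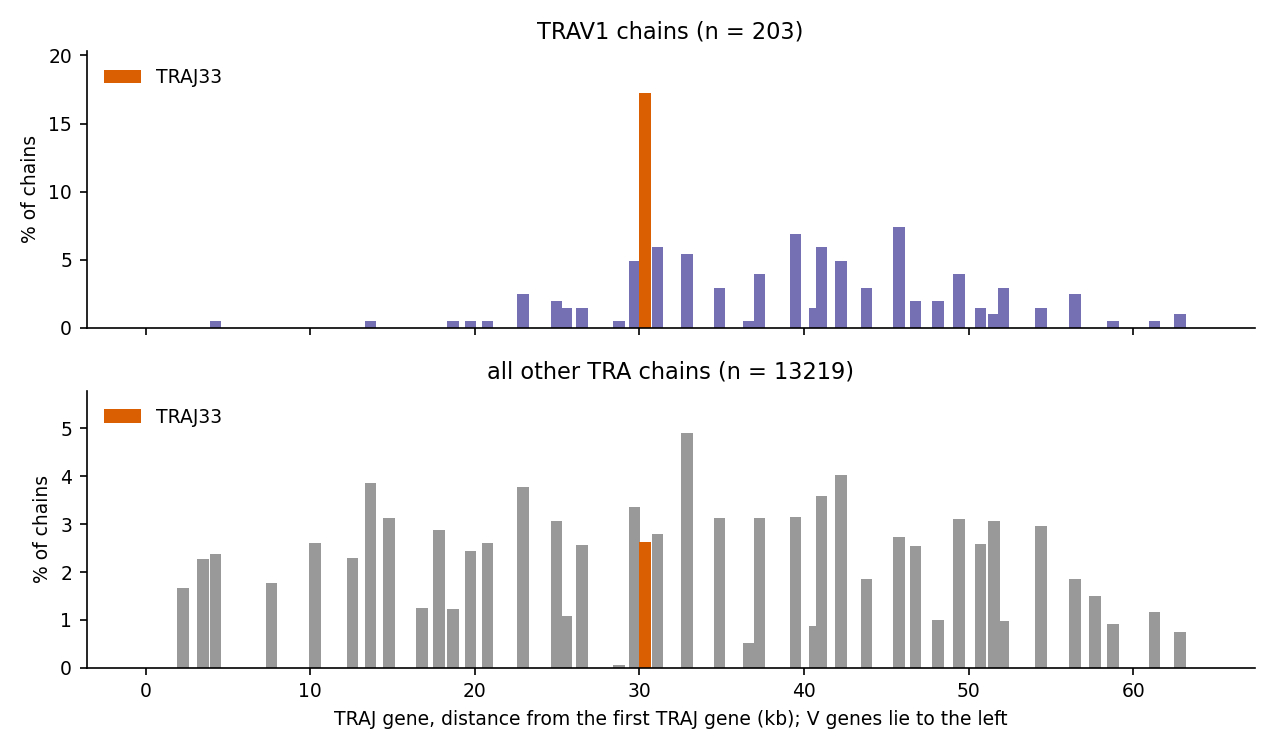
Use of each TRAJ gene by the 203 TRAV1 chains and by the 13219 other TRA chains of the 6 node libraries, in percent of chains, against its distance in kb from the first TRAJ gene; TRAJ33 is in orange and the scales of the panels differ. TRAV1 has 4.93% of its chains at TRAJ40 and above, on the left, where other chains have 34.1%.

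TRAV1 lies farthest from the J genes, yet did not have the farthest mean J position. With 37.9 kb it was 18th of 72 V genes with at least 20 chains by first V call. Calls naming more than 1 V gene made up 20.4% to 22.2% of TRA chains in the WT node libraries. In the 5xFAD ones they made up 5.45% to 6.13%, so the values of other V genes carry this uncertainty. TRAV2, the next V gene, lay at 38.9 kb on 21 chains. TRAV1 chains stood near the low end in their spread, with an SD of 9.73 kb between chains, and in their share at TRAJ40 and above, each of which was lower in 2 of the other 71 genes. At the other end of the V genes, TRAV17 lay at 22.0 kb on 32 chains, TRAV19 at 15.8 kb on 104 and TRAV21 at 11.8 kb on 241. TRAV21, whose gene ends 278.3 kb before the first TRAJ gene, used TRAJ40 and above in 88.0% of chains and TRAJ33 in 5 chains. TRAV18 had 1 chain and TRAV20 had 0. Over the 72 genes Spearman's rho between V position and mean J position was -0.48, and -0.47 without TRAV1; the genes share libraries, and this is a description. TRAV3-1, which comes after TRAV2, went against its neighbours with a mean of 19.7 kb on 129 chains and 63.6% of them at TRAJ40 and above. The cause was not tested, and the V positions are those of GRCm38, which the V sequences of many chains do not match.

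**Figure D5:**
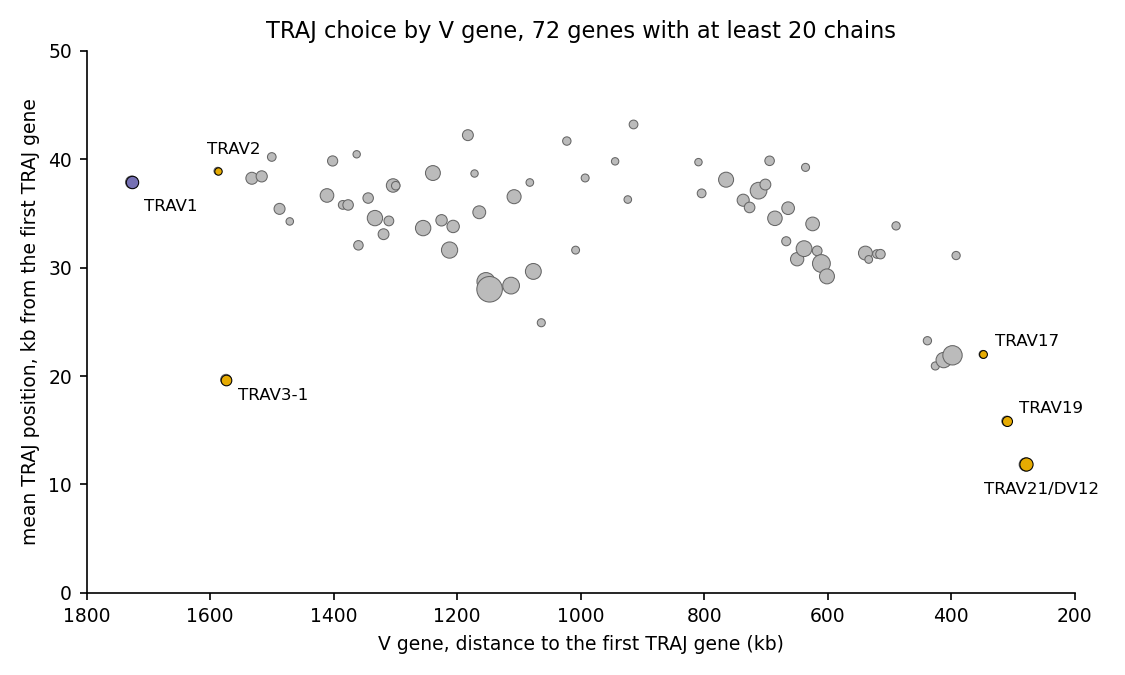
Mean TRAJ position of the chains of each V gene, in kb from the first TRAJ gene, against the distance of the V gene to the first TRAJ gene in kb, for 72 V genes in the 6 node libraries; the area of a point grows with the number of chains. TRAV1, in purple at the far left, lies at 37.9 kb, and TRAV21 at the right lies at 11.8 kb.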

How the data were processed

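Each library had 1 table of assembled contigs from 10x Genomics single-cell TCR libraries. The submitters' processing notes name mm10, Seurat 4.1.0 and Cell Ranger 6.0.1 without saying what each was used for. V and J genes were called with IgBLAST, per the file headers. The deposited counts are UMIs per contig, whole numbers without normalization. The deposited fraction is the V identity. Other deposited values are lengths in nucleotides, per the file headers. The 6 node libraries listed productive contigs only.

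A cell had 1 productive TRB and at most 2 productive TRA chains, and its most abundant TRA chain by UMI was used. Barcodes with extra chains were set aside as possible doublets, and no doublet caller was run. Features with at least 10 clonotypes entered an edgeR 4.0.16 quasi-likelihood fit (R 4.3.3) on node type and genotype, with clonotype totals as offset and a threshold of 0.05. The fit was also run on simulated counts with a dispersion set by hand, which does not show how it behaves at the spread of these libraries. Shares have exact Clopper-Pearson 95% intervals and a floor of 3 counts. Log2 ratios within nodes used a pseudocount of 0.5. Other work used Python 3.11.15, pandas 2.3.3 and scipy 1.17.1.

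Alternatives covered the counted unit, DESeq2 1.42.0, TMM scaling, the filter, ambiguous calls, a minimum of 2 UMIs, extra chains, medians and each library left out. Members and lists (the TRBV13 and TRBV19 partners, the MAIT and invariant natural killer T pairs) were chosen with earlier results of these data known. Named genes were the 5 TRAJ genes and TRAV subgroups used most, the most frequent TRBV partners, the V genes at both ends of the locus and the 3 features most like each gene. TRAV3-1, TRBV3, TRBV12-2 and the spread of TRAJ positions by V gene were named after their values were seen.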

Additional observations from a re-analysis of the deposited data

Results flagged for a closer look

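Several measures of TRAV1 chains moved in opposite directions between node types. The differences between nodes were not tested, since each node has 1 library per genotype. The log2 ratio of the TRAV1 clonotype share in 5xFAD to that in WT was 0.2067 in dCLN, -0.4432 in sCLN and 0.6066 in iLN. The mean TRAJ position of TRAV1 chains in 5xFAD minus WT was 7.396 kb in dCLN, 0.3803 kb in sCLN and -4.709 kb in iLN. The mean junction length of TRAV1 chains in 5xFAD minus WT was 2.071 bases in dCLN, 1.353 in sCLN and -0.3427 in iLN. Between 18 and 56 TRAV1 chains per library stand behind these means.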

How the results depend on the processing

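Of the values recomputed under alternatives other than leaving out a library, 104 kept their direction and their side of the threshold, 14 changed sign and 5 crossed to the called side. All 5 came from adding the CD4-titled and mixed libraries, which allows a smaller p: TRAJ position 5.465 kb, TRAJ33 share 14.25 percentage points, TRAJ33 junction length -3.28 bases and TRAV1 log2 UMIs -0.2933, each with an exact adjusted p of 0.01953, and the TRBV13 or TRBV19 share of TRAV1 6.381 percentage points at 0.04688. Counting each TRA junction once per library, which also merges the leading junction of different cells, reduced the TRAJ33 share difference to 8.147 percentage points. It reduced the TRBV13 or TRBV19 difference of TRAV1 to 1.879 percentage points. A minimum of 2 UMIs reduced the TRAV1 log2 UMI difference to -0.1256. The TRAJ33 junction length difference was -5 bases by medians. TRAV1 usage in 5xFAD against WT was 0.3021 with all chains and turned to -0.11 without ambiguous calls, and dCLN against sCLN to -0.2123 with all chains. Added bases of TRAV1 turned to 0.1527 with each TRA junction counted once, 0.25 with medians, 0.02354 with 8 libraries and 0.352 without the chains that carry both genes. Those of TRAJ33 turned to 0.05712 with each TRA junction counted once, 0.1667 with medians and 0.1519 without the chains with both. The TRBV13 or TRBV19 difference of TRAJ33 turned to -1.993 with each TRA junction counted once, -0.03526 with at least 2 UMIs and -0.08956 with 8 libraries. Without the chains with both genes it turned to -3.059, and the log2 UMIs of TRAJ33 turned to 0.01483. Leaving out the chains with both genes, and the exact comparison with germline ends, were chosen after seeing the data. The cause of the sign changes was not tested.

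Leaving out each library in turn changed the sign of 15 values and left the usage of both genes short of the threshold. With 5 libraries the smallest exact p is 0.0625, so the within-library comparisons could not be called there. TRAV1 usage by genotype ran from -0.07339 to 0.4202, dCLN against sCLN from -0.3294 to 0.5163, dCLN against iLN from -0.4591 to 0.2201 and sCLN against iLN from -0.7184 to 0.1274. TRAJ33 usage by genotype ran from -0.6337 to -0.303, and the node contrasts from -0.3844 to 0.1142, from -0.3307 to 0.122 and from -0.1919 to 0.3062 in the same order. The TRAV1 junction length difference ran from -0.1655 to 0.1927 bases and the TRAJ33 partner difference from -3.501 to 3.856 percentage points. The TRAJ position ran from 4.534 to 6.134 kb and the TRAJ33 share from 14.81 to 19.39. The number of features called for genotype was 2 in the fit reported, 4 with no minimum, 3 with cells, and 0 with all chains, with at least 2 UMIs, by DESeq2 or without each of the 6 libraries in turn. The genotype comparisons pair the libraries of a node: node type is a term of the usage fit. Chains with both genes numbered 2 to 6 per library.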
